A study of Mus musculus with 24 samples.

Results

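The genes described here are 9 genes of the follicular helper T cell programme: the receptors Cxcr5, Btla and Cd200, the adaptor Sh2d1a, the transcription factors Bcl6, Maf and Tox2, and the secreted proteins Il21 and Sostdc1. They were taken by symbol from a table of 24421 genes, and all 9 were present and passed the filter on low counts in both T cell types. They were picked with earlier results of these data known: Cxcr5 and Btla had already been reported as higher in CD8 cells under both drugs, and no p-value is given where that choice bears on the libraries compared. The RNA came from bone marrow T cells, separated by FACS into CD8 and CD4 fractions, of female CByB6F1 mice aged 2 to 5 months. Every mouse had immune-mediated bone marrow failure, a condition used to model aplastic anaemia. The mice were left untreated or were given the calcineurin inhibitor cyclosporine (CSA), the JAK1 and JAK2 inhibitor ruxolitinib at low dose (RUX) or both drugs (RUX+CSA). Each of the 8 groups of cell type and treatment holds 3 libraries, and each library is a pool of cells from 2 to 3 mice of that group. Mice without marrow failure are not analysed here, so levels are read against untreated mice with the disease.

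Follicular helper T cells are CD4 cells that move into B cell follicles and help B cells to form germinal centres. The chemokine receptor CXCR5 takes them there, and the repressor BCL6 is required for their formation, while IL-21 is the cytokine through which they act on B cells and on CD8 cells. CD8 T cells that carry CXCR5 are known from chronic infection. Calcineurin, the target of CSA, activates the NFAT transcription factors, and the JAK kinases, the targets of RUX, activate STAT transcription factors. BCL6 lies downstream of cytokines that act through STAT proteins.

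Sequencing depth was 16.9 to 34.6 M read pairs per library. Levels are CPM, counts per M read pairs of library totals scaled by the trimmed mean of M values (TMM). A count of 3, used as the floor of detection, equals 0.0894 to 0.172 CPM, and covers counting error only. The sorts matched the labels: Cd4 stood at 1175 to 1722 CPM in CD4 libraries and 0.403 to 1.16 in CD8 libraries, and Cd8a at 730 to 1149 CPM in CD8 and 1.16 to 7.79 in CD4 libraries. The lowest Cd8a in CD8, 730 CPM, was that of RUX 7, while every other CD8 library had at least 1021 CPM. Since these are bulk samples, fewer cells of a type and less RNA per cell cannot be told apart. The p-values measure the spread between pools of mice.

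Some libraries stood apart. In CD8 cells, library CSA 6 went with the RUX libraries and RUX 7 with the CSA libraries: across 8951 genes, the deviation of CSA 6 from the CD8 mean had a Pearson's r of 0.591 and 0.579 with RUX 8 and RUX 9 but -0.518 and -0.659 with CSA 4 and CSA 5. RUX 7 had 0.325 and 0.429 with CSA 4 and CSA 5 but -0.623 and -0.652 with RUX 8 and RUX 9. Genes are not independent replicates, so no p is given. The labels were kept, and CD8 results that involve a single drug are also given without these 2 libraries. All 6 RUX+CSA libraries also carried B cell transcripts. Ms4a1, which encodes the B cell surface protein CD20, had 394, 103 and 29 read pairs in CD8 RUX+CSA 10, 11 and 12 and 467, 436 and 71 in CD4 RUX+CSA 22, 23 and 24, against at most 8 in any other library. This touches the members because B cells themselves express some of them, among them Cxcr5, Btla and Bcl6.

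Promoter sequences of Bcl6, Il21 and Tox2 are shown here, with the letters that match the cores of STAT or NFAT sites marked. RefSeq windows (build GRCm38.p6, the same assembly as mm10) were at hand for 5 of the 9 members: Bcl6, Btla, Cd200, Il21 and Tox2. Both Bcl6 windows are shown for the palindrome TTCNNNGAA, the core of STAT binding sites, in capitals, on the 250 bases before each annotated start, 5′ to 3′ on the minus strand. The first window is chr16:23981284-23981533, within the gene, and the second is chr16:23988853-23989102, before its 5′ end.
Bcl6 start inside the gene: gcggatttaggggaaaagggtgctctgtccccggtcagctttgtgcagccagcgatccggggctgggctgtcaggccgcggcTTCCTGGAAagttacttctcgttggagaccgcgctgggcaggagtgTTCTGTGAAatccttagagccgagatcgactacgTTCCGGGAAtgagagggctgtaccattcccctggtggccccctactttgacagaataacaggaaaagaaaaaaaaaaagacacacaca
Bcl6 start at the 5′ end: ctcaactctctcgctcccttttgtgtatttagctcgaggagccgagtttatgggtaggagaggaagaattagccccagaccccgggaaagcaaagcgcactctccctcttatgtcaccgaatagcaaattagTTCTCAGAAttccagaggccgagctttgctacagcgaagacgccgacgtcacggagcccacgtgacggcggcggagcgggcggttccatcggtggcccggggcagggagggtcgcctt
The first window holds 3 matches, TTCCTGGAA, TTCTGTGAA and TTCCGGGAA, at 168, 122 and 88 bases before the start, and the second holds 1, TTCTCAGAA, at 118 bases. Among 32851 RefSeq promoter windows of the same 250 bases, 7.02% hold at least 1 match. The Il21 window (chr3:37232637-37232886, minus strand) and the Tox2 window that ends at the start of the gene as counted here (chr2:163225204-163225453, plus strand) are shown for GGAAA, the core of NFAT sites, searched on both strands, so TTTCC is its other strand.
Il21: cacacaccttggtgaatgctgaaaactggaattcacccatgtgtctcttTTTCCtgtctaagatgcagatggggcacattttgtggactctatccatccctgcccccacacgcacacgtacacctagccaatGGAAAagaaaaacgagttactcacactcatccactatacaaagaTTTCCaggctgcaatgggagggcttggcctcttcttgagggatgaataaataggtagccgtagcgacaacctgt
Tox2: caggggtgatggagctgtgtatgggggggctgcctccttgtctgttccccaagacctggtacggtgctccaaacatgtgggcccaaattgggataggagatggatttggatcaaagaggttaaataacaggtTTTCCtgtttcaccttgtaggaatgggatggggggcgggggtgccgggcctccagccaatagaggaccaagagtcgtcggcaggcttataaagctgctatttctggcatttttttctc
Il21 holds 3 matches, at 201, 118 and 74 bases before the start, and the Tox2 window shown holds 1, at 118 bases. Of the 5 Tox2 windows, 3 hold no match. This short core is common: 55.6% of the windows hold it. The GGAAA core also occurs 3 times in the first Bcl6 window and once in the second, where one of its copies in the first window overlaps the match TTCCTGGAA. The Btla and Cd200 windows hold neither motif. A match is a run of letters and does not show that a factor binds there.

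In CD4 cells, RUX+CSA went with more Bcl6, Cd200 and Sostdc1 RNA than in untreated mice, by 2.86-fold, 1.69-fold and 3.18-fold in the fit. CSA alone went with less Sh2d1a and Tox2, and RUX alone with no member past the threshold. Between the 2 single drugs, 5 of 9 members (Cxcr5, Cd200, Sh2d1a, Tox2 and Sostdc1) were higher under RUX than under CSA. Cxcr5, Cd200 and Sostdc1 were higher under RUX+CSA than under CSA alone, but 0 members passed in that comparison without pool 22 or without pool 23. The RUX+CSA pools also carried B cell transcripts, which cannot be told apart from the drugs there. Members past the threshold (adjusted p under 0.05 over all genes of the fit) numbered 3 of 9 for RUX+CSA against untreated, where 1.77% of all genes tested passed. For CSA against untreated they numbered 2 of 9, with 1.48% of all genes. They numbered 0 of 9 for RUX against untreated, where 0% of genes passed and 548 genes had an unadjusted p under 0.05, with 4 members among them. They were 3 of 9 for RUX+CSA against CSA (0.281% of all genes), 0 of 9 for RUX+CSA against RUX (0.782%) and 5 of 9 for RUX against CSA (2.52%). The median log2 change over the 9 members was 0.36 for RUX+CSA against untreated, -0.28 for CSA against untreated, 0.34 for RUX against untreated and 0.62 for RUX against CSA, beside medians over all genes of -0.0069, 0.00044, 0.0042 and -0.0054. These comparisons share libraries and are not independent of each other.

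**Figure D1:**
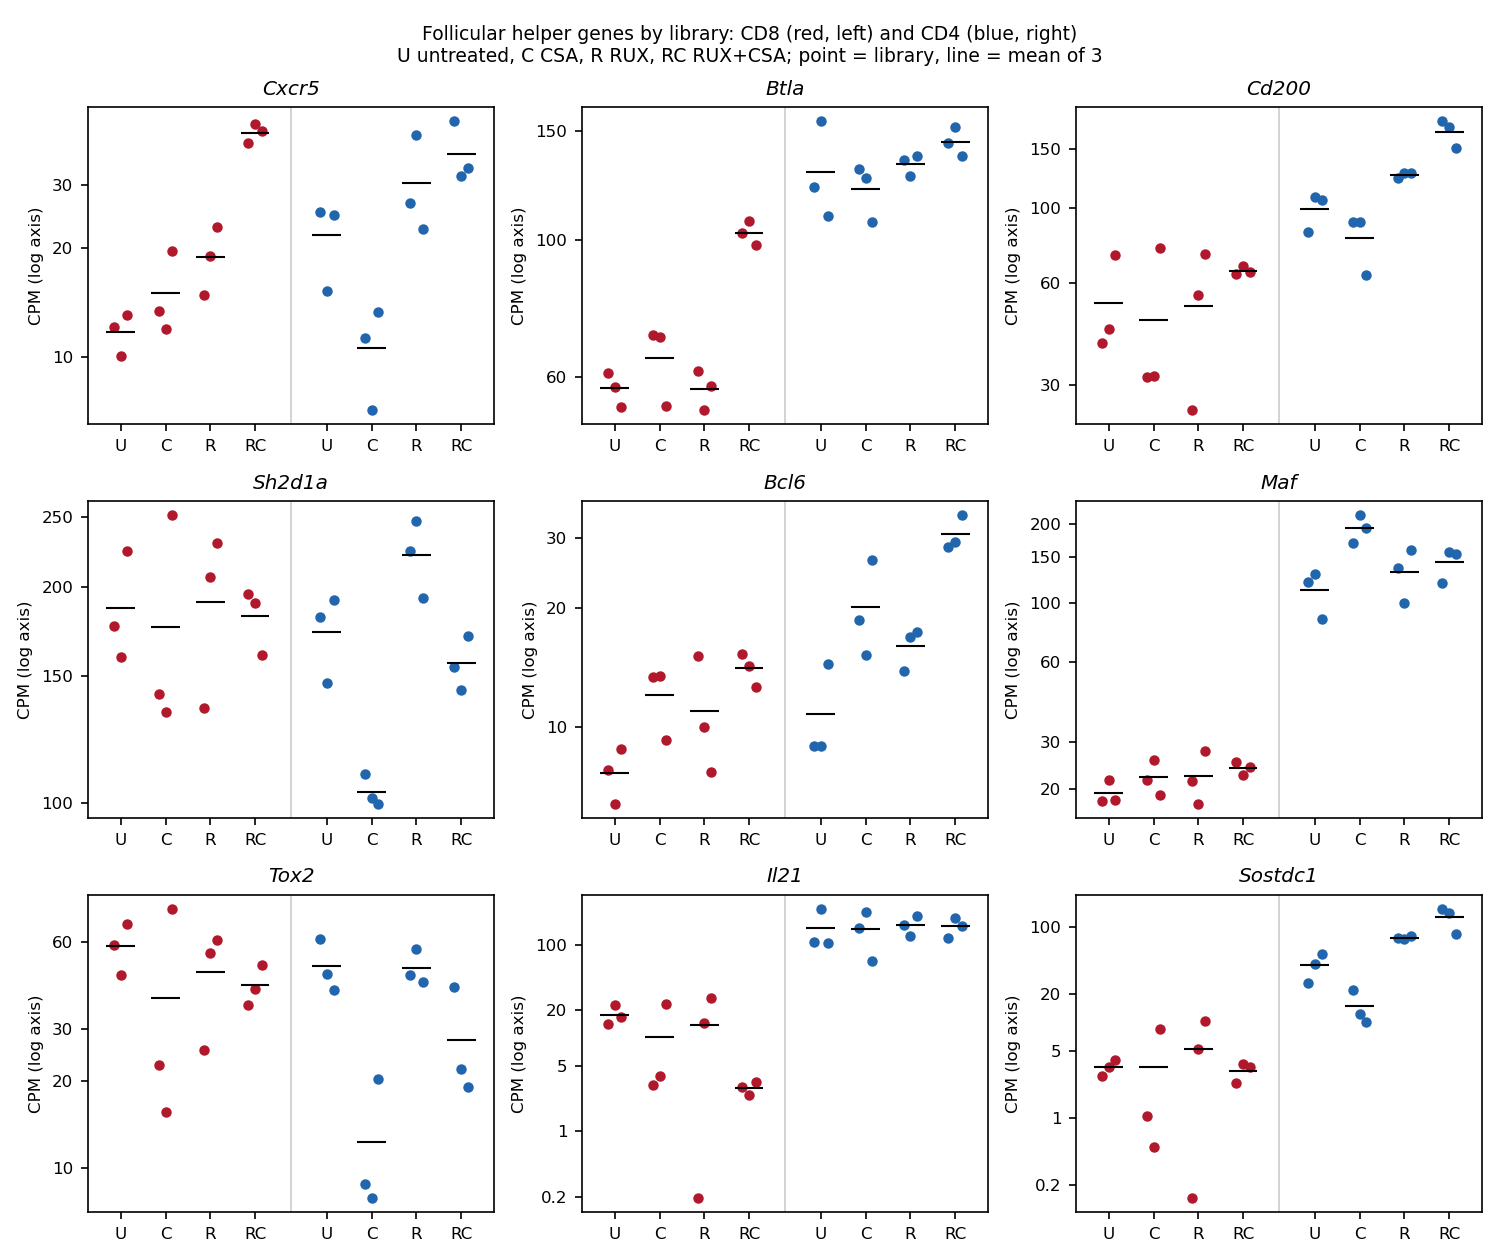
Level of each of the 9 genes in CPM (log axis) in every library, CD8 in red and CD4 in blue, by treatment (U untreated, C CSA, R RUX, RC RUX+CSA); points are libraries and lines are means of 3. In CD4, Cd200 and Sostdc1 are lowest under CSA and highest under RUX+CSA; in CD8, Cxcr5 and Btla are highest under RUX+CSA, where all 3 libraries lie above every other CD8 library.

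Bcl6 (chr16:23965052-23988612, minus strand) encodes the transcriptional repressor that defines follicular helper cells. In CD4 pools 13, 14 and 15, untreated, it stood at 8.94, 8.94 and 14.4 CPM. Under CSA, pools 16, 17 and 18 had 18.6, 15.2 and 26.4 CPM. Under RUX, pools 19, 20 and 21 had 13.8, 16.9 and 17.4 CPM. Under RUX+CSA, pools 22, 23 and 24 had 28.6, 29.3 and 34.2 CPM. All RUX+CSA values lay above all others in CD4, and all CSA values lay above all untreated ones, while the RUX and untreated pools overlapped. Against untreated, Bcl6 was higher under RUX+CSA by 1.52 ± 0.24 on the log2 scale (fit ± SE, n = 3 and 3 pools, adjusted p = 0.00584), and the call held without each pool in turn. CSA gave 0.90 ± 0.23 (adjusted p = 0.0752; 0.0250 without pool 15), and RUX gave 0.58 ± 0.23 (adjusted p = 1). Over both RUX settings, pools with CSA had more Bcl6 than pools without it, by 0.92 ± 0.165 (adjusted p = 0.00521), in a comparison where 7.16% of genes passed; 3 members passed it. RUX+CSA exceeded RUX by 0.94 ± 0.23 (adjusted p = 0.0731). In CD8, Bcl6 was at 7.78, 6.37 and 8.78 CPM untreated and at 15.3, 14.3 and 12.6 CPM under RUX+CSA, with no overlap.

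Maf (chr8:115703253-115706894, minus strand) encodes c-Maf, a transcription factor that promotes Il21 expression in helper T cells. In CD4 it stood at 121, 129 and 87.1 CPM untreated and at 170, 215 and 193 CPM under CSA. The RUX pools had 136, 100 and 159 CPM and the RUX+CSA pools 120, 157 and 154 CPM. The CSA pools lay above all other CD4 pools. The difference from untreated, 0.78 ± 0.18 on the log2 scale, missed the threshold (adjusted p = 0.0538), as did the comparison of pools with and without CSA (0.45 ± 0.13, adjusted p = 0.0503).

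Tox2 (chr2:163225454-163323102, plus strand) encodes a chromatin-associated factor that in mice supports the follicular helper state. In CD4 it stood at 61.2, 46.3 and 41.1 CPM untreated. The CSA pools had 8.82, 7.91 and 20.3 CPM, all below every untreated pool. RUX pools, at 46.2, 56.7 and 43.6 CPM, overlapped the untreated ones, and RUX+CSA pools had 41.9, 21.9 and 19.0 CPM. CSA lowered Tox2 by -2.01 ± 0.40 on the log2 scale (adjusted p = 0.0359). That call was lost without pool 13 (adjusted p = 0.0876), 14 (0.0595), 16 (0.0982) or 17 (0.106), with the direction unchanged. Tox2 was higher under RUX than under CSA by 1.99 ± 0.40 (adjusted p = 0.0272), and this was lost without pools 16, 17, 19, 20 or 21, at 0.0889, 0.0856, 0.0788, 0.104 and 0.0606. Pools with CSA had less Tox2 than pools without it (-1.42 ± 0.27, adjusted p = 0.0151), a call that held in all 12 fits without 1 pool. RUX+CSA against untreated gave -0.84 ± 0.38 (adjusted p = 0.295).

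Sh2d1a (chrX:42502608-42522075, plus strand) encodes SAP, the adaptor of SLAM family receptors through which T cells hold on to B cells. In CD4 the CSA pools had 110, 101 and 99.5 CPM, below the untreated pools at 181, 147 and 192 CPM and the RUX pools at 225, 247 and 193 CPM. RUX+CSA pools lay between, at 155, 143 and 171 CPM, overlapping the untreated ones. CSA lowered Sh2d1a by -0.74 ± 0.12 on the log2 scale against untreated (adjusted p = 0.00726). It was higher under RUX than under CSA by 1.10 ± 0.12 (adjusted p = 0.000344). Both calls held without each pool in turn. RUX+CSA against CSA gave 0.60 ± 0.12 (adjusted p = 0.0534), and RUX+CSA against RUX gave -0.50 ± 0.12 (adjusted p = 0.0662).

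Cxcr5 (chr9:44511787-44526421, minus strand) encodes the receptor of the follicle chemokine CXCL13. In untreated CD4 pools it stood at 25.2, 15.2 and 24.7 CPM. The CSA pools had 11.3, 7.12 and 13.3 CPM, below all untreated ones. The RUX pools had 26.8, 41.3 and 22.7 CPM and the RUX+CSA pools 44.9, 31.6 and 33.3 CPM. Every RUX and RUX+CSA pool lay above every CSA pool. RUX exceeded CSA by 1.52 ± 0.28 on the log2 scale (adjusted p = 0.0114; 0.0587 without pool 20). RUX+CSA exceeded CSA by 1.79 ± 0.285 (adjusted p = 0.0195), which was lost without pool 16 (0.0536), 17 (0.0737), 22 (0.0822) or 23 (0.0595). Against untreated, neither CSA (-1.04 ± 0.28, adjusted p = 0.0921; 0.0443 without pool 14) nor RUX+CSA (0.75 ± 0.28, adjusted p = 0.176) passed, although the RUX+CSA pools lay above all untreated ones. The 95% interval of the latter was 0.16 to 1.35.

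Cd200 (chr16:45382135-45409053, minus strand) encodes a surface ligand that restrains myeloid cells through its receptor CD200R1. In CD4 the CSA pools had 90.8, 91.1 and 63.3 CPM and the untreated pools 84.9, 108 and 105 CPM. The RUX pools had 123, 127 and 127 CPM and the RUX+CSA pools 180, 174 and 150 CPM. The untreated and CSA pools overlapped, while each of the groups with RUX stood clear of the others. Under RUX+CSA, Cd200 was higher by 0.76 ± 0.14 on the log2 scale against untreated (adjusted p = 0.0143) and by 1.04 ± 0.14 against CSA (adjusted p = 0.00897). Without pool 22 or 23 these adjusted p-values were 0.0740 and 0.0559 for the first and 0.0543 and 0.0551 for the second. RUX exceeded CSA by 0.62 ± 0.14 (adjusted p = 0.0264), lost without pools 18, 19, 20 or 21, at 0.0964, 0.0811, 0.0985 and 0.0745.

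Btla (chr16:45224337-45252895, plus strand) encodes an inhibitory receptor that binds HVEM. Its 12 CD4 libraries ran from 107 to 155 CPM with a median of 132. No comparison of treatments in CD4 passed the threshold; the lowest adjusted p, 0.509, was that of RUX+CSA against CSA (0.25 ± 0.12 on the log2 scale), where the pools did not overlap. RUX+CSA against untreated gave 0.16 ± 0.12 on the log2 scale (adjusted p = 0.546), with a 95% interval of -0.10 to 0.42.

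Sostdc1 (chr12:36314169-36318452, plus strand) encodes a secreted antagonist of BMP and WNT signalling, known in mice as a product of follicular helper cells. Its 4 CD4 group means spanned the widest ratio among the members. Untreated pools had 25.7, 41.5 and 52.3 CPM, CSA pools 22.1, 12.2 and 10.0 CPM, RUX pools 77.0, 75.2 and 80.3 CPM, and RUX+CSA pools 153, 142 and 84.6 CPM. None of the 4 groups overlapped. Under RUX+CSA, Sostdc1 was higher by 1.67 ± 0.34 on the log2 scale against untreated (adjusted p = 0.0440). That call was lost without pools 13, 14, 22 or 23, at 0.0915, 0.0762, 0.125 and 0.119, and without the filter on low counts, at 0.0757. RUX+CSA exceeded CSA by 3.09 ± 0.36 (adjusted p = 0.0107), lost without pools 17, 22 or 23, at 0.0737, 0.0543 and 0.0551. RUX exceeded CSA by 2.38 ± 0.35 (adjusted p = 0.00793), and this held without each pool in turn. CSA against untreated gave -1.42 ± 0.35 (adjusted p = 0.0869; 0.0463 without pool 13 and 0.0223 without pool 16), and RUX against untreated gave 0.96 ± 0.33 (adjusted p = 1).

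Il21 (chr3:37222759-37232636, minus strand) encodes the helper cytokine IL-21. Its CD4 pools differed widely within each group. Untreated pools had 109, 242 and 106 CPM, CSA pools 152, 226 and 68.0 CPM, RUX pools 165, 125 and 205 CPM and RUX+CSA pools 121, 195 and 162 CPM. All groups overlapped. RUX+CSA against untreated gave 0.06 ± 0.47 on the log2 scale (adjusted p = 0.969), with a 95% interval of -1.01 to 1.13. Changes within those bounds are therefore not excluded.

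**Figure D2:**
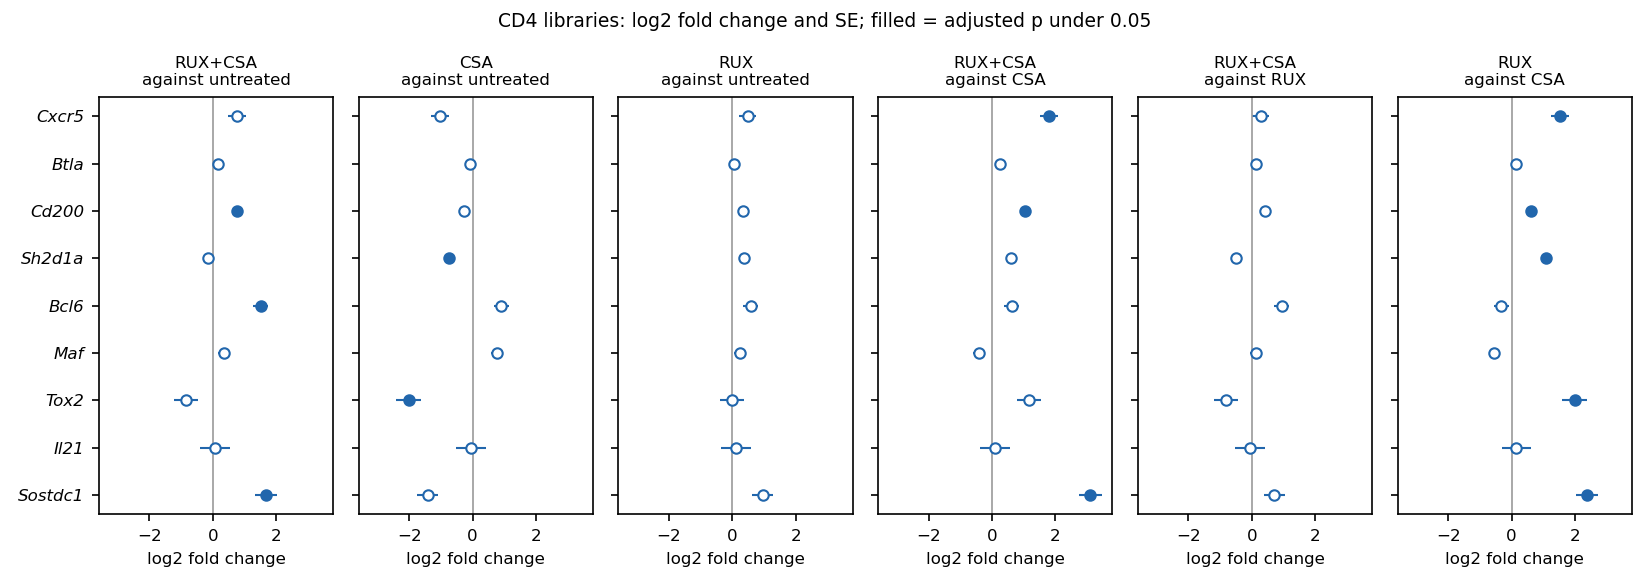
Log2 fold change (fit, bars are SE) of each gene in the 6 comparisons of treatments in CD4 cells, 3 pools a group; filled points have an adjusted p under 0.05. RUX against CSA has 5 filled points, all above 0, and RUX against untreated has none.

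Taking pools with and without RUX over both CSA settings in CD4, Cxcr5 (1.14 ± 0.20 on the log2 scale, adjusted p = 0.0313), Cd200 (0.69 ± 0.10, 0.0224), Sh2d1a (0.48 ± 0.08, 0.0307) and Sostdc1 (2.03 ± 0.245, 0.0224) were higher with RUX. That is 4 of 9 members, where 0.25% of all genes passed. The count rested on many of the pools: it was 1 without CSA 17, 2 without RUX+CSA 24, and 0 without any one of RUX 19, 20 and 21 or RUX+CSA 22 and 23. No member showed an interaction of the drugs past the threshold, where 0% of genes passed and 629 genes had an unadjusted p under 0.05. The largest interaction estimate among the members was that of Sostdc1, 2.13 ± 0.48 on the log2 scale (adjusted p = 0.797; DESeq2 alone called it, at 0.000614).

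In CD8 cells, Cxcr5 and Btla stood out under RUX+CSA, the contrast they were chosen on, so their values are a description. Cxcr5 was at 12.1, 10.0 and 13.0 CPM in untreated libraries 1 to 3 and at 39.1, 44.1 and 42.2 CPM in RUX+CSA libraries 10 to 12. The CSA libraries had 13.4, 11.9 and 19.7 CPM and the RUX libraries 14.8, 19.0 and 22.9 CPM. Btla was at 61.0, 57.9 and 53.8 CPM untreated and at 103, 107 and 98.0 CPM under RUX+CSA, while CSA (70.2, 69.7 and 53.9 CPM) and RUX (61.4, 53.2 and 58.0 CPM) libraries overlapped the untreated ones. The fitted log2 differences were 1.82 ± 0.19 for Cxcr5 and 0.82 ± 0.11 for Btla, a fold of 3.53 and 1.77. Bcl6 differed by 0.87 ± 0.24, Maf by 0.31 ± 0.17 and Il21 by -2.61 ± 1.16, each with no overlap of libraries, and the other 4 overlapped. Across all genes 15.7% passed the threshold in this contrast, and 21.7% lay wholly above and 21.7% wholly below untreated. The members' median was 0.31 against -0.024 for all genes, and nothing is read from it.

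Il21 RNA in CD8 cells varied by library. It stood at 14.2, 22.6 and 17.0 CPM untreated, at 3.15, 3.97 and 23.6 CPM under CSA, at 0.193, 14.5 and 27 CPM under RUX and at 2.98, 2.48 and 3.36 CPM under RUX+CSA. The lowest value rests on 4 read pairs, near the floor. The same libraries were low for other members: among the 6 single-drug CD8 libraries, CSA 4, CSA 5 and RUX 7 lay below CSA 6, RUX 8 and RUX 9 for 6 members (Cxcr5, Cd200, Sh2d1a, Tox2, Il21 and Sostdc1) and above them for Btla and Bcl6, with Maf overlapping. Of all genes tested in CD8, 19.1% lay wholly lower and 17% wholly higher in the same way. Tox2 was at 22.7, 15.6 and 25.5 CPM in the first set and at 77.4, 54.9 and 60.8 CPM in the second. Sostdc1 was at 1.05, 0.501 and 0.145 CPM in the first and at 8.62, 5.31 and 10.4 CPM in the second. These sets were read off the data and are no groups of the study.

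**Figure D3:**
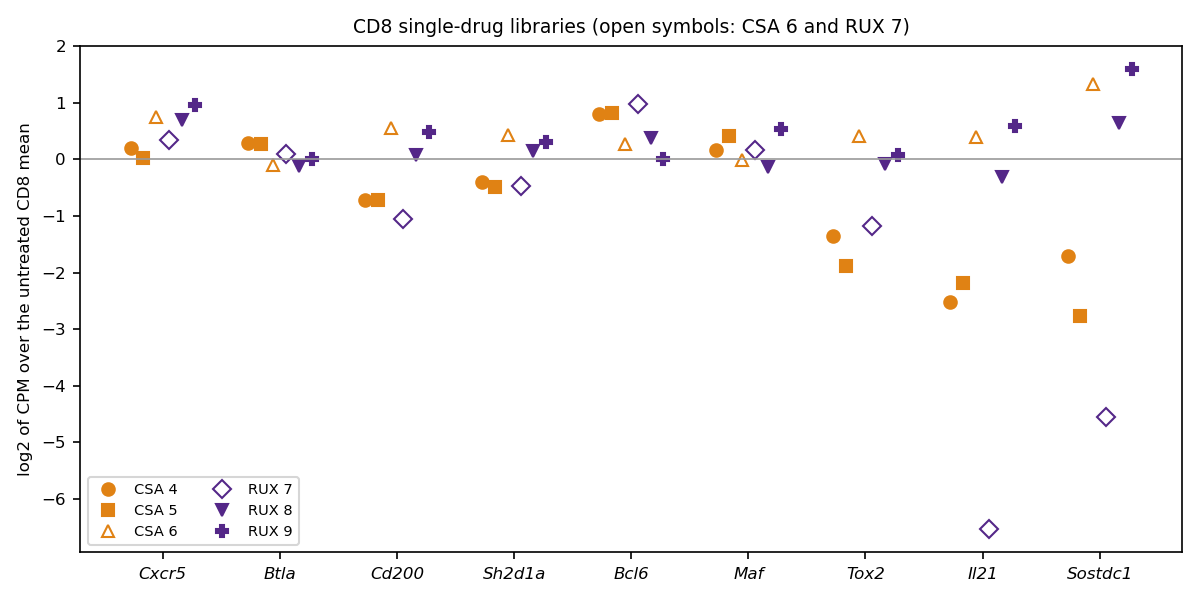
Log2 ratio of each gene's CPM in the 6 single-drug CD8 libraries to the mean of the 3 untreated CD8 libraries; circles, squares and upward triangles are CSA, the other shapes are RUX, and open symbols mark CSA 6 and RUX 7. For Il21, Tox2 and Sostdc1, RUX 7 sits with CSA 4 and CSA 5 and CSA 6 sits with RUX 8 and RUX 9.

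With the labels as given, no member passed the threshold in a tested CD8 comparison: 0 of 7 for CSA and for RUX against untreated, 0 of 7 for RUX+CSA against CSA and against RUX, and 0 of 9 for RUX against CSA. The percentages of all genes that passed were 0, 0, 0.0788, 0 and 0%, and 1233, 744, 1593, 2198 and 230 genes had an unadjusted p under 0.05. Leaving out CSA 6 and RUX 7, 4 of 7 members passed for CSA against untreated (4.81% of genes): Bcl6 at 0.81 on the log2 scale (adjusted p = 0.0203), Tox2 at -1.60 (0.00223), Il21 at -2.34 (0.00221) and Sostdc1 at -2.12 (0.0160). For RUX against CSA, 5 of 9 passed (3.57%): Cxcr5 at 0.71 (0.0209), Sh2d1a at 0.65 (0.0352), Tox2 at 1.58 (0.00340), Il21 at 2.54 (0.00194) and Sostdc1 at 3.31 (0.00241). For RUX+CSA against RUX it was 3 (11.6%: Bcl6 at 0.68, Il21 at -2.80 and Sostdc1 at -1.33) and for RUX+CSA against CSA it was 1 (0.859%: Tox2 at 1.15). RUX against untreated had 0 with or without them. The 2 libraries were left out for their values, so these p-values are not independent evidence. In RUX+CSA against untreated, groups that hold neither of the 2, 30.4% of genes passed once they were left out of the fit.

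**Figure D4:**
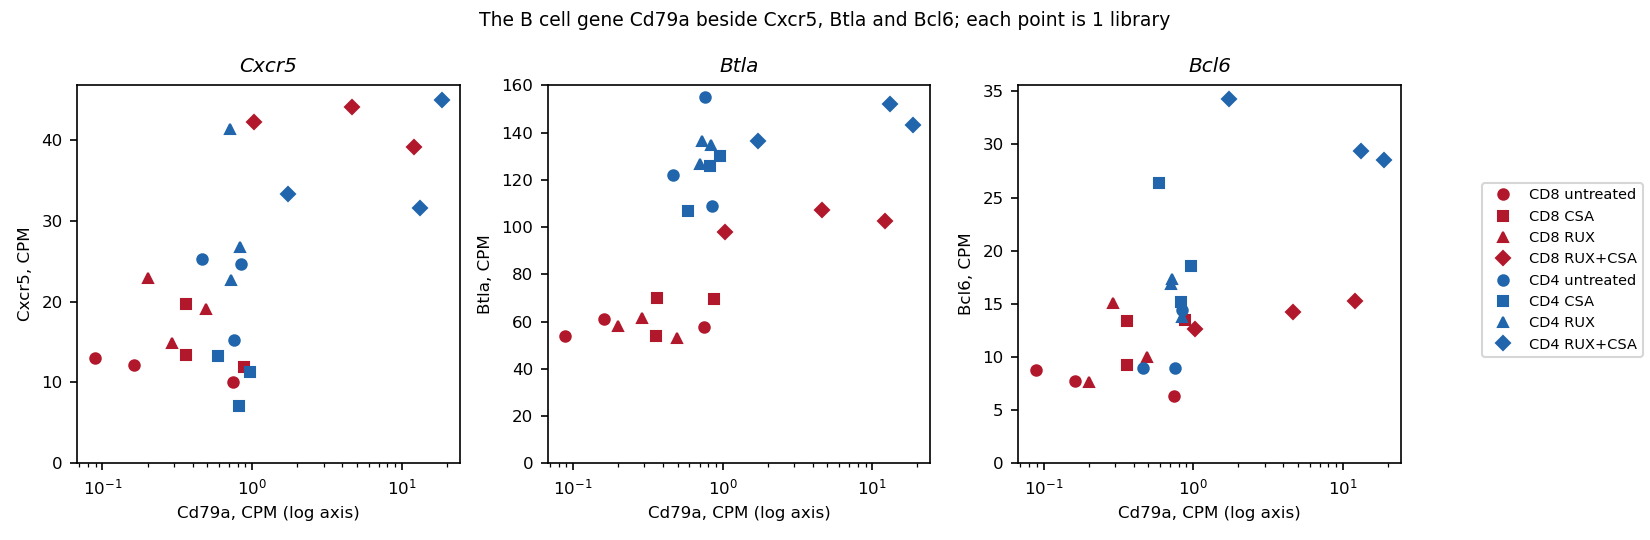
Levels in CPM of Cxcr5, Btla and Bcl6 against that of the B cell gene Cd79a (log axis), 1 point per library, colour by cell type and shape by treatment. Among the RUX+CSA libraries (diamonds), Cd79a spans 1.03 to 12.1 CPM in CD8 and 1.73 to 18.7 CPM in CD4, while Cxcr5 spans 39.1 to 44.1 and 31.6 to 44.9 CPM.

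B cell transcripts were higher under RUX+CSA, and so were some of the members above, such as Bcl6, Cd200 and Sostdc1 in CD4. The summed level of 15 B and plasma cell markers was 6.52 to 15.6 CPM in untreated and 34.0 to 88.5 CPM in RUX+CSA CD8 libraries, and 14.0 to 18.2 and 39.7 to 141 CPM in CD4. Past the threshold, 7 of 12 tested markers rose in CD8, beside 15.7% of all genes, and 6 of 13 in CD4, beside 1.77%. All 15 markers had read pairs in the RUX+CSA groups. Cd79a lay between 0.0887 and 0.961 CPM in all other libraries. Library CD8 12, with the lowest Cd79a of its group (1.03 CPM), had 42.2 CPM of Cxcr5 and 98.0 of Btla, against 39.1 and 103 in library 10, which had 12.1 CPM of Cd79a. Its Bcl6, 12.6 CPM, was the lowest of its group, against 15.3 CPM in library 10. In CD4, pool 24 had the lowest Cd79a (1.73 CPM) and the highest Bcl6 (34.2 CPM) of its group, but also the lowest Cd200 (150 CPM) and Sostdc1 (84.6 CPM). Cxcr5 was at 33.3 CPM in pool 24. It was highest, at 44.9 CPM, in pool 22, which also had the highest Cd79a (18.7 CPM), and stood at 31.6 CPM in pool 23 (Cd79a 13.2 CPM). In the contrast of RUX with CSA in CD4, Ms4a1 had no read pair in any of the 6 pools, but other markers of the list did. Of the 15 B and plasma cell markers, 13 had read pairs in the CD4 CSA group and 11 in the CD4 RUX group. Their summed level had a median of 19.3 CPM under CSA and 16.3 CPM under RUX, beside 17.7 CPM in untreated CD4 pools. With the mean of 6 B cell markers as a covariate, 0 members and 0 genes in all passed for RUX+CSA against untreated in CD4. On the log2 scale, Bcl6 then differed by 1.96 in place of 1.52 (adjusted p = 0.583), Cd200 by 0.32 in place of 0.76 (0.920) and Sostdc1 by 0.093 in place of 1.67 (0.993). For RUX+CSA against CSA in CD4, 0 members and 0 genes in all passed with the covariate. There Cxcr5 differed by 1.14 in place of 1.79 (adjusted p = 0.952), Cd200 by 0.59 in place of 1.04 (0.948) and Sostdc1 by 1.46 in place of 3.09 (0.936). The 5 calls of RUX against CSA held. That covariate is itself higher in RUX+CSA, so the drugs and the markers cannot be told apart in this fit.

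Other markers also differed between groups. The summed level of 11 neutrophil markers, all with read pairs in every group, ran from 4.20 to 8470 CPM in untreated and 8000 to 10008 CPM in RUX+CSA CD4 libraries, 3277 to 16375 under CSA and 3896 to 7606 under RUX; in CD8 it was 10.9 to 1437 untreated and 4242 to 5691 under RUX+CSA. The 10 macrophage markers summed to 182 to 541 CPM in untreated CD4 pools and to 46.8 to 74.4 CPM under RUX+CSA, with 4 of 10 lower. The erythroid list summed to 2.61 to 57.2 CPM in untreated and 110 to 386 CPM in RUX+CSA CD4 pools, with 1 of 6 tested higher and Hbb-bs, Hbb-bt and Hba-a1 at 0 counts in every library. In CD4 the stroma list overlapped, at 83.9 to 110 CPM untreated and 79.6 to 128 CPM under RUX+CSA. The NK list did not, at 1489 to 1759 and 2141 to 2155 CPM, with 2 of 7 tested markers higher. A list of 13 T cell identity genes had none past the threshold there. The regulatory T cell list, of 7 genes, was 716 to 1018 and 639 to 797 CPM, with 2 of 7 lower. These counts past the threshold, for RUX+CSA against untreated in CD4, stand beside 1.77% of all genes. Markers also passed in the comparisons of the single drugs in CD4. Under CSA against untreated, where 1.48% of all genes passed, 1 of 7 regulatory T cell markers, Foxp3, was lower (-0.99 ± 0.17 on the log2 scale). The NK marker Klrk1 (1.81 ± 0.20), 1 of 7 tested, and the erythroid marker Klf1 (4.53 ± 0.86), 1 of 6 tested, were higher. The medians of these lists were -0.83, 1.07 and 3.83. Under RUX against CSA, where 2.52% of all genes passed, the regulatory T cell markers Foxp3 (0.95 ± 0.17) and Ikzf2 (0.98 ± 0.21), 2 of 7, were higher. Of 7 tested NK markers, Eomes (1.85 ± 0.40) was higher and Klrk1 (-2.13 ± 0.20) lower. Eomes was the only NK marker above 0, and that list's median was -1.27. The erythroid marker Epor (-2.55 ± 0.53), 1 of 6 tested, was lower, and 0 of the 6 lay above 0. The part of these cells in the results above was not tested.

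Compared between cell types, Maf and Il21 were lower in CD8 than in CD4 under every treatment and Sostdc1 under all but CSA. The Maf difference was -2.54 ± 0.19 on the log2 scale untreated (adjusted p = 1.53e-08) and -3.12, -2.56 and -2.58 under CSA, RUX and RUX+CSA. Il21 was lower by -3.09 ± 0.86 untreated (adjusted p = 0.0199; lost without CD8 library 1, 2 or 3 or CD4 pool 14, at 0.0819, 0.0506, 0.0735 and 0.0753) and by -3.84, -3.56 and -5.74 under the drugs in the same order. The CSA value was -5.39 without CD8 CSA 6, and the RUX value ranged from -4.51 without CD8 RUX 9 to -2.99 without CD8 RUX 7. Sostdc1 was lower by -3.54 ± 0.85 untreated (adjusted p = 0.00844), by -3.85 under RUX (-4.85 without CD8 RUX 9 and -3.29 without CD8 RUX 7) and by -5.34 under RUX+CSA, and under CSA its difference of -2.09 ± 0.81 missed the threshold (adjusted p = 0.0680). Btla was lower in CD8 under CSA (-0.91 ± 0.12, adjusted p = 1.2e-05) and under RUX (-1.20 ± 0.12, adjusted p = 5.16e-07). Cd200 was lower under RUX (-1.29 ± 0.34) and RUX+CSA (-1.37 ± 0.34), and Bcl6 under CSA (-0.74 ± 0.24) and RUX+CSA (-1.13 ± 0.24). Sh2d1a (0.76 ± 0.21, adjusted p = 0.0108) and Tox2 (1.66 ± 0.51, adjusted p = 0.0238) were higher in CD8 than in CD4 under CSA. Without CD8 CSA 6, the differences under CSA were 0.41 for Sh2d1a, 0.64 for Tox2 and -0.58 for Bcl6, and none of these was called (adjusted p = 0.0996, 0.292 and 0.129). With RUX 7 left out as well, the values were 0.41, 0.64 and -0.58, and Sh2d1a was called (0.0352, against 0.233 and 0.0812 for the others). In that fit Cd200 (-1.37, adjusted p = 0.000118) and Sostdc1 (-4.22, 2.4e-05) under CSA and Bcl6 under RUX (-0.86, 0.0182) were also called lower in CD8, and the Maf, Il21 and Btla calls under CSA and RUX held, as did those of Cd200 and Sostdc1 under RUX. Of all genes, 23.1% passed in that fit under CSA and 15.7% under RUX. CSA 6 and RUX 7 were left out for their values, so the p-values of that fit are not independent evidence. With all CD8 libraries kept, the Tox2 call under CSA was also lost without CD4 pool 16 (0.0940) or 17 (0.0906) and the Bcl6 call without 18 (0.187). Members tested and past the threshold were 3 of 7 untreated, 6 of 9 under CSA, 5 of 9 under RUX and 5 of 7 under RUX+CSA, where 17.2, 26.3, 17.9 and 27.8% of all genes passed. The effects of CSA and of RUX against untreated did not differ between the cell types past the threshold for any of the 7 members tested (0% of genes, 1005 and 441 with an unadjusted p under 0.05).

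With the 8 groups ranked by mean level, 12 of 63 neighbouring pairs of groups (7 per gene) had no overlap of libraries, against 5.38% of such pairs over all 13476 genes. These pairs include the CD8 libraries on which Cxcr5 and Btla were picked, so nothing is read from this count. For Btla, the 1 step without overlap lay between CD8 RUX+CSA and CD8 CSA. Sostdc1 had 3 such steps, from CD4 RUX+CSA (126 ± 36.7 CPM, SD, n = 3) to RUX (77.5 ± 2.57), untreated (39.8 ± 13.4) and CSA (14.8 ± 6.42), with every CD8 group mean below these. Maf and Il21 each had a clear step between the lowest CD4 group and the highest CD8 group. Cxcr5 and Tox2 had none. For Cxcr5 the order ran from CD8 RUX+CSA (41.8 ± 2.5 CPM) through CD4 RUX+CSA (36.6 ± 7.25) and CD4 RUX (30.2 ± 9.81) down to CD8 untreated (11.7 ± 1.54) and CD4 CSA (10.6 ± 3.16). Per kilobase of exon, mean levels over 12 CD4 libraries were 200 CPM per kb for Sh2d1a, 50.6 for Cd200, 49.2 for Il21, 40.7 for Btla, 39.8 for Maf, 36.9 for Sostdc1, 20.6 for Tox2, 9.48 for Cxcr5 and 5.90 for Bcl6. In CD8 they were 225 for Sh2d1a, 27.8 for Tox2, 22.9 for Cd200, 21.8 for Btla, 8.36 for Cxcr5, 6.02 for Maf, 3.54 for Il21, 3.40 for Bcl6 and 2.17 for Sostdc1.

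Some other genes of the follicular helper programme also passed the threshold. Their counts stand beside shares of all genes of 1.77% for RUX+CSA against untreated, 1.48% for CSA against untreated and 2.52% for RUX against CSA in CD4, 15.7% for RUX+CSA against untreated in CD8 and 17.2% for CD8 against CD4 in untreated mice. Of 13 tested genes on a list named as promoting it, 3 rose under RUX+CSA against untreated in CD4 and none fell. They were Bach2 at 2.60 ± 0.27 on the log2 scale, Id3 at 1.29 ± 0.26 and Nfatc1 at 0.57 ± 0.13. NFATc1 is a calcineurin-dependent factor. BACH2, a repressor that keeps T cells from effector fates, and ID3, an inhibitor of E proteins, are also known in mice to restrain follicular helper cells, so the list's name does not describe them well. The list's median was 0.29 against -0.0069 for all genes. The lists were chosen with earlier results of these data known, so their counts for RUX+CSA against untreated in CD8 are a description. In CD8, Id3 (1.17 ± 0.23), Tcf7 (1.25 ± 0.26), which encodes TCF1, and Pou2af1 (2.48 ± 0.54), a coactivator also made by B cells, rose under RUX+CSA. That is 3 of 13, beside 15.7% of all genes. Of 12 restraining genes, 1 rose in CD4 under RUX+CSA (Foxp1, 0.65 ± 0.15) and none fell, while in CD8 2 of 12, Rc3h2 (-0.82 ± 0.15) and Id2 (-0.81 ± 0.165), fell, a share near that of all genes. RUX against CSA in CD4 called 3 of 13 genes of the list named as promoting, Tox (0.76 ± 0.11) and Batf (0.67 ± 0.11) higher and Bach2 (-1.40 ± 0.26) lower. Among restraining genes it called Foxp1 (-0.68 ± 0.15) lower and Stat5a (0.50 ± 0.11) higher. Of 20 surface and cytokine genes, CSA lowered 3 in CD4, Izumo1r (folate receptor 4, -0.97 ± 0.16), Angptl2 (-0.95 ± 0.18) and P2rx7 (-1.33 ± 0.28). Under RUX+CSA 1 was higher, Nt5e (CD73, 0.87 ± 0.20). P2rx7, whose product limits follicular helper cells, also fell in CD8 under RUX+CSA (-1.48 ± 0.28), where Gpr183 (0.99 ± 0.23) rose. Of the 19 partner genes of the members (ligands and receptors of the members, SLAM family receptors, and signalling or corepressor proteins that bind them), Slamf7 rose in CD4 under CSA (1.35 ± 0.19) and RUX+CSA (0.79 ± 0.19) and Fyn, the kinase recruited by SAP, fell under CSA (-0.49 ± 0.094). In CD8 under RUX+CSA, 3 partners rose and 4 fell, with Cd244 at -1.91 ± 0.30, Slamf6 at 0.52 ± 0.11 and Ptpn11 at -0.60 ± 0.13. In untreated mice CD8 had less Icos (-1.60 ± 0.13), Cd40lg (-5.26 ± 0.50) and P2rx7 (-2.29 ± 0.29) than CD4, among 13 of 20 surface and cytokine genes that were lower and 2 that were higher.

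The 12 libraries of a cell type differ in depth and treatment, and in CD8 they include those on which Cxcr5 was picked. Profiles were compared by Pearson's r of log2 CPM over these libraries, among 8872 genes in CD8 and 9091 in CD4. These genes averaged 3 or more on that scale, and those most like Cxcr5 or Bcl6 were ranked by r. For Cxcr5 these were Nadk (0.96), Cd9 (0.94) and H13 (0.93) in CD8 and Cdc123 (0.96), Psen2 (0.92) and Parn (0.91) in CD4. For Bcl6 they were Dync1li1, Uap1 and Cytip (each 0.97) in CD8 and Kdm6b (0.93), 1810058I24Rik (0.91) and Nr4a1 (0.91) in CD4.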

How the data were processed

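The deposited table holds raw read pair counts per gene. Per the file headers, featureCounts 2.0.3 counted read pairs over exons of a UCSC mm10 annotation with no strand option, so pairs of overlapping genes on opposite strands cannot be told apart; STAR and mm10 come from the submitters' processing notes, which give no STAR version. Libraries were made with a SMART-Seq mRNA kit, per the labels. From the counts, edgeR 4.0.16 in R 4.3.3 gave TMM factors, filterByExpr removed low counts, and groups were compared by its quasi-likelihood F test, robust and two-sided, with Benjamini-Hochberg adjustment at 0.05 over all genes: 12684 genes in the CD8 fit, 13175 in the CD4 fit and 13476 in the fit of all 24 libraries, which served comparisons between cell types and the levels. SE were taken from the F statistic and 95% intervals from the t quantile of the same test. The procedure was tested on simulated data. Alternatives used DESeq2 1.42.0, limma 3.58.1 (voom), other size factors, no filter, a B cell covariate, 1 fit of all libraries and left-out libraries.

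The members and lists were chosen with earlier results of these data known. CD8 RUX+CSA against untreated was not tested for any member, nor Cxcr5 and Btla wherever CD8 untreated or RUX+CSA libraries entered. The text names all members, up to 3 genes per list and comparison by smallest p among those past the threshold, and the 3 genes most like Cxcr5 and Bcl6 in each cell type. Promoters are from RefSeq; the 250 bases before each start were searched. The listed genes Cd244a and Ly6g were not matched in the table.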

Additional observations from a re-analysis of the deposited data

Results flagged for a closer look

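In CD4, every CSA pool had less Cxcr5 than the untreated mean, with a ratio of mean CPM of 0.487, while every CD8 CSA library lay above the untreated CD8 mean, with a ratio of 1.28. The difference was not tested, since Cxcr5 was chosen with its CD8 values known. In CD8 the CSA libraries, at 13.4, 11.9 and 19.7 CPM, overlapped the untreated ones, and the fitted log2 difference of 0.35 was 0.11 without CSA 6 and RUX 7, so a rise in CD8 was not shown.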

How the results depend on the processing

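The 39 calls of members kept their direction in all 276 refits without 1 library, 210 of which passed the threshold, and in all 234 refits under other settings, 204 of which passed. Without 1 library, the number of members called ranged from 1 to 3 for CD4 RUX+CSA against untreated, 1 to 3 for CSA against untreated, 0 to 3 for RUX+CSA against CSA, 2 to 4 for RUX against CSA, 0 to 4 for pools with against without RUX, 3 to 4 for pools with against without CSA, 2 to 3, 5 to 6, 5 to 6 and 5 to 5 for CD8 against CD4 untreated, under CSA, RUX and RUX+CSA, and 0 to 0 for the rest; the members' median in CD8 RUX+CSA against untreated ranged from 0.15 to 0.31. With the B cell covariate it fell to 0 for RUX+CSA against untreated, RUX+CSA against CSA and both main effects. With all 24 libraries in 1 fit it was 1 for RUX+CSA against untreated, against CSA and against RUX and for the RUX main effect, and 2 for RUX against CSA; for CSA against untreated Sh2d1a (adjusted p = 0.0743) and Tox2 (0.0583) were lost and Cxcr5 (0.0477) and Maf (0.0325) gained. DESeq2 called 6 for CSA against untreated, 5 for RUX+CSA against CSA, 2 for RUX+CSA against RUX and 1 for the interaction; for RUX+CSA against RUX, no filter gave 2 and voom 1. Without CD8 CSA 6 and RUX 7 it was 4 for CSA against untreated, 1 for RUX+CSA against CSA, 3 for RUX+CSA against RUX and 5 for RUX against CSA. In CD8 RUX+CSA against untreated, Tox2 and Sostdc1 changed sign with the B cell covariate, to 0.49 and 1.37 on the log2 scale. The cause was not tested for any of these. With RLE size factors Maf also passed for the CSA main effect in CD4 (adjusted p = 0.0487), and without the filter Tox2 missed it for CSA against untreated (0.0780) and RUX against CSA (0.0671) and Sostdc1 for RUX+CSA against untreated (0.0757). Each pool number occurs in 1 group only, so the labels do not link CD8 pools to CD4 pools. No paired analysis was made, and any sharing of mice between CD8 and CD4 pools was not taken into account. The lowest counts of a member were those of CD8 RUX 7, with 4 read pairs of Il21 and 3 of Sostdc1; RUX 8, of like depth (20.6 against 20.5 M read pairs), had 295 and 108.
Genes called in the whole table moved more: in CD4 DESeq2 called 883, 655, 749, 201, 552, 1674 and 210 for RUX+CSA against untreated, CSA against untreated, RUX against CSA, RUX+CSA against CSA, RUX+CSA against RUX and the CSA and RUX main effects, against 233, 195, 332, 37, 103, 943 and 33 here, and the B cell covariate left 0, 134, 271, 0, 0, 9 and 0. A single fit of all libraries called 669, 250 and 1498 for RUX+CSA against untreated and against RUX and the CSA main effect, no filter 77, 206 and 69 for RUX+CSA against CSA and against RUX and the RUX main effect, and voom 118 for RUX+CSA against untreated. In CD8 RUX+CSA against untreated the covariate left 0 of 1988, and 1 library less gave 426 to 1807. Where no gene passed here, DESeq2 called 66 for CSA and 78 for RUX against untreated, 505 for RUX+CSA against RUX and 0 for RUX against CSA in CD8 (266 against 10 for RUX+CSA against CSA), 12 for RUX against untreated and 17 for the interaction in CD4, and 15 and 2 for the differences of the CSA and RUX effects between cell types.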
